A study of Rattus norvegicus with 12 samples.

Results

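The expression of 7 genes of cytotoxic granules and natural killer (NK) cells was described in the cells of bronchoalveolar lavage fluid (BALF) of rats exposed to lipopolysaccharide (LPS), to hypobaric hypoxia, or to both. They were Gzmb, Prf1, Gzma and Gzmk, which encode the pore protein and the proteases of the granule, Nkg7, which encodes a protein of the granule membrane, and Klrd1 and Klrb1c, which encode lectin-like receptors. The genes were listed by name, with earlier results of these arrays known, so the list is not independent of the pattern described below. Of 31099 probe sets on the array, 8 named 1 of these genes alone, and the probe set of highest mean intensity stood for each gene, so that 7 of the 14217 genes with a probe set of their own are described. Gzmb had a second probe set, which was kept as a check. All 7 passed the filter on low intensities on each of the 12 arrays.

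Cytotoxic lymphocytes, the NK cells and the cytotoxic T cells, kill a target cell by releasing the content of their granules into the cleft between both cells. Perforin opens pores in the target membrane and granzymes, which are serine proteases, enter and start cell death. NK cells choose their targets through germline-encoded receptors, among them the lectin-like receptors of the killer cell complex, whereas T cells use the T cell receptor with CD3. Both cell types are minor among the cells that a lavage of the healthy airspace recovers, where alveolar macrophages prevail.

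Each group had 3 arrays, and each array held RNA pooled from several 8-week-old male Sprague-Dawley rats, so that the pool and not the rat is the replicate. COMB rats received LPS (0.5 mg/kg, tail vein) and then stayed 6 h in a hypobaric chamber at 405.35 mmHg, which matches an altitude of 5000 m and 11.2% oxygen. LPS rats received the same dose in normal air, HPO rats had the same 6 h in the chamber without LPS, and CTL rats received saline in normal air. The right lung was lavaged, and all rats were fasted and were anesthetized with chloral hydrate before. Pools are named by the rat numbers in their labels, so that COMB 10/11 is the pool of rats 10 and 11, and values are given in a fixed order of pools. This order is COMB 2/3, 10/11 and 12/13/14, LPS 2/3/6, 5/7/11 and 8/9/10, HPO 7/8/9, 2/4/11 and 3/5/12, and CTL 1/3/4, 5/6/7 and 8/9/10. The design describes 3 rats per pool, but the labels of 2 COMB pools list 2 rats. The titles of the 3 COMB arrays spell the group COMP, and their source names give COMB and the combined exposure, which was used here.

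The array medians lay between 32.72 and 35.61 intensity units, so the arrays were on a common scale. Of the COMB arrays, that of the COMB 2/3 pool stood farthest from the others of its group over all probe sets tested. The macrophage marker Mrc1 was at 5404 to 7759 on all arrays. The mean log2 intensity of 10 alveolar macrophage genes was 10.1 to 10.4 in COMB, 9.89 to 10.1 in LPS, 9.63 to 9.81 in HPO and 9.66 to 10 in CTL, but its genes went both ways. In COMB against CTL, Chi3l1 (3.81 on the log2 scale) and Car4 (3.18) were called higher by limma, and Pparg (-1.47), Krt79 (-0.551) and Abcg1 (-0.393) lower. RNA of a mixed cell population does not tell fewer cells of a type from less RNA per cell, and this holds for every value below.

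The upstream sequences of 4 of the genes are shown as a description, and those of Gzmk and Klrb1c are not shown. The sequences cover 250 bases before to 50 bases after the transcription start, from RefSeq on GRCr8, and 6 of the 7 genes had an entry there. Gzmb lies at chr15:34462420-34462719 on the minus strand, Prf1 at chr20:29788790-29789089 on the plus strand, Gzma at chr2:46485647-46485946 on the minus strand and Nkg7 at chr1:102981247-102981546 on the plus strand. Capitals mark the RUNX motif TGTGGT, or ACCACA when read on the other strand, and the ETS motif AGGAAGT, or ACTTCCT on the other strand.
Gzmb: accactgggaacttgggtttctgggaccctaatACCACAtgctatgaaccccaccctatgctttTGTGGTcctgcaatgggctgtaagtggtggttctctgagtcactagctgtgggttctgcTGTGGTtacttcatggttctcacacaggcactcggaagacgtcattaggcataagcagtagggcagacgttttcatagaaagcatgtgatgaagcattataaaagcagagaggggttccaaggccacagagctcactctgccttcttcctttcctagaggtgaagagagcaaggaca
Prf1: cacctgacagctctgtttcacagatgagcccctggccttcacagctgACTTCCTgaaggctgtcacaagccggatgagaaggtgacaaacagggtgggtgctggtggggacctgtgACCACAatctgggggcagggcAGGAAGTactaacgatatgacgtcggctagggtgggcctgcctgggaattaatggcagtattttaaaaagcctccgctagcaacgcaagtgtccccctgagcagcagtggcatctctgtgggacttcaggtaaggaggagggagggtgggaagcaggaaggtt
Gzma: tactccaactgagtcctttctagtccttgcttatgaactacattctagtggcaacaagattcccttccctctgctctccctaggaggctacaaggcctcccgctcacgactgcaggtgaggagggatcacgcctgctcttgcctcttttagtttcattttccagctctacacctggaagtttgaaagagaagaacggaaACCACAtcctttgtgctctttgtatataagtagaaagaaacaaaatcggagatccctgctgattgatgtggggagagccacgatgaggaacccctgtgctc
Nkg7: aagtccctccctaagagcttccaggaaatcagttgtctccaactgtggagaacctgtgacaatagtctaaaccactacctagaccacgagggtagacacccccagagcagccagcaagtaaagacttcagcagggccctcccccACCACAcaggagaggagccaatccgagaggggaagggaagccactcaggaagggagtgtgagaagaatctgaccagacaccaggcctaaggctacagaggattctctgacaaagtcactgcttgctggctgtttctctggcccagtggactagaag
The RUNX motif was found in 5 of 6 promoters, those of Gzmb, Prf1, Gzma, Gzmk and Nkg7, against 17.3% of all 33469 promoters of this length. Gzmb held 3 copies, which began 217, 186 and 127 bases before the start. The ETS motif was found in Prf1, which held 2 copies, and in Klrb1c, against 8.41% of all promoters. The T-box motif AGGTGTG was found in none of the 6, against 5.61%, the AP-1 motif TGANTCA in Gzmb, against 7.33%, and the CRE motif TGACGTC in Gzmb and Prf1, against 3.22%. Both strands were searched, and no match of these 5 motifs overlapped another. The 4 sequences shown all held the RUNX motif, which Klrb1c lacked. A match is a description of the letters, and its part in the values of these pools was not tested. Gzma and Gzmk are direct neighbors on chromosome 2, with 0 genes between them, and Klrd1 lies between Klre1 and Klrk1 on chromosome 4, where Klrb1c lies too.

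For each of the 7 genes, 2 of the 3 COMB pools and 1 of the 3 CTL pools were above all other pools, the third COMB pool and every LPS and HPO pool included. This order of pools was read from these values, and its share over all probe sets was not counted. Gzmb, Prf1 and Gzma, which encode granule content, differed most between pools. Gzmb encodes granzyme B, which cleaves after aspartate and activates caspases. Its intensity was 98.1, 1440 and 1840 in COMB, 42.5, 54.6 and 61.2 in LPS, 154, 29.9 and 19.6 in HPO, and 23.0, 863 and 59.2 in CTL. Thus 2 of the 3 COMB pools and 1 CTL pool, CTL 5/6/7, were high, while the COMB 2/3 pool was below the highest HPO pool. The values of COMB and CTL overlapped, and each COMB pool was above each LPS pool on this probe set. The second probe set of Gzmb showed the same 3 high pools, with 13.4, 272 and 335 in COMB, 9.73, 11.6 and 13.9 in LPS, 26.6, 12.1 and 8.15 in HPO, and 9.06, 230 and 12.9 in CTL. There the COMB 2/3 pool was below the highest LPS pool, so that COMB and LPS overlapped.

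Prf1 encodes perforin. Its intensity was 83.8, 608 and 932 in COMB, 40.8, 56.6 and 51.3 in LPS, 122, 61.1 and 36.0 in HPO, and 21.5, 617 and 61.5 in CTL. The CTL 5/6/7 pool was as high as the COMB 10/11 pool, and the lowest value of all was also in CTL. Gzma encodes granzyme A, a tryptase. It measured 38.5, 871 and 1047 in COMB, 29.3, 30.1 and 29.5 in LPS, 37.9, 18.9 and 12.4 in HPO, and 10.9, 381 and 48.0 in CTL. The 3 LPS pools of Gzma differed by no more than 1.03-fold, and the CTL pools by 35.1-fold. Gzmk encodes granzyme K, also a tryptase. It had 25.0, 285 and 304 in COMB, 26.6, 35.4 and 25.7 in LPS, 37.4, 38.3 and 23.1 in HPO, and 20.1, 108 and 29.4 in CTL, so that the COMB 2/3 pool was below every LPS pool and within the ranges of HPO and CTL.

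Nkg7 had 83.1, 625 and 751 in COMB, 40.1, 62.2 and 47.3 in LPS, 86.6, 64.6 and 66.3 in HPO, and 58.7, 294 and 78.2 in CTL. Each COMB pool was above each LPS pool, and each LPS pool was below each HPO pool, while COMB overlapped HPO and CTL. The lectin-like receptors were high in the same pools. Klrd1 encodes CD94, which pairs with NKG2 chains to read nonclassical MHC class I. It had 20.9, 284 and 155 in COMB, 14.3, 33.3 and 17.3 in LPS, 28.9, 40.9 and 22.3 in HPO, and 11.2, 94.9 and 48.8 in CTL. Klrb1c, a member of the NKR-P1 family, had 32.8, 85.2 and 72.3 in COMB, 20.0, 22.5 and 21.4 in LPS, 34.6, 33.6 and 20.8 in HPO, and 14.6, 60.1 and 30.9 in CTL. Both receptor genes were higher in the COMB 10/11 pool than in the COMB 12/13/14 pool, and the other 5 genes were lower there. Intensities of different probe sets are not compared here, since each probe set has its own response.

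**Figure D1:**
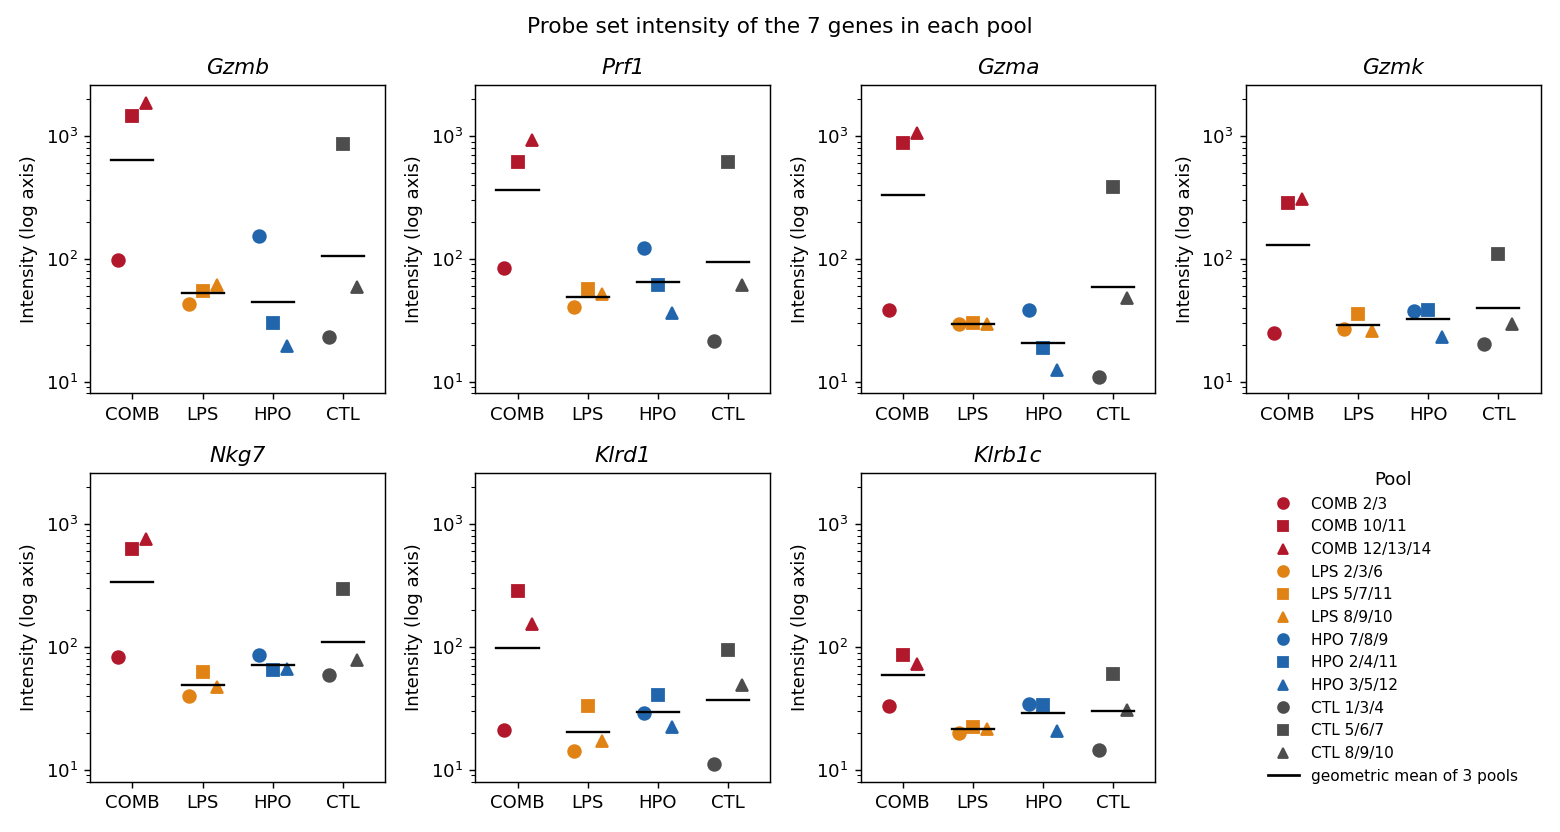
Intensity of the 7 genes (log axis) in the pools of COMB, LPS, HPO and CTL, with 1 marker per pool and a line at the geometric mean of the 3 pools. The COMB 10/11 and COMB 12/13/14 pools and the CTL 5/6/7 pool are high in all panels, and the COMB 2/3 pool is the lowest COMB pool, at 98.1 for Gzmb and 38.5 for Gzma.

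The spread between pools of one group was therefore large. As the residual SD of the log2 intensity over the 4 groups, it was 1.94 for Gzmb, 1.87 for Gzma, 1.6 for Prf1, 1.29 for Klrd1, 1.21 for Gzmk, 1.09 for Nkg7 and 0.644 for Klrb1c, against a median of 0.159 over the 25692 probe sets tested. Gzmb ranked first among all of them, Gzma 5 and Prf1 13, and 6 of the 7 genes were above the 99th percentile. In 16 other settings of scaling, pseudocount and arrays left out, Gzmb stayed within the first 8, Gzma within the first 25 and Prf1 within the first 36. The last ranks came without the CTL 5/6/7 pool for Gzmb and Prf1 and without the COMB 2/3 pool for Gzma. These ranks describe the 12 arrays and carry no test.

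**Figure D2:**
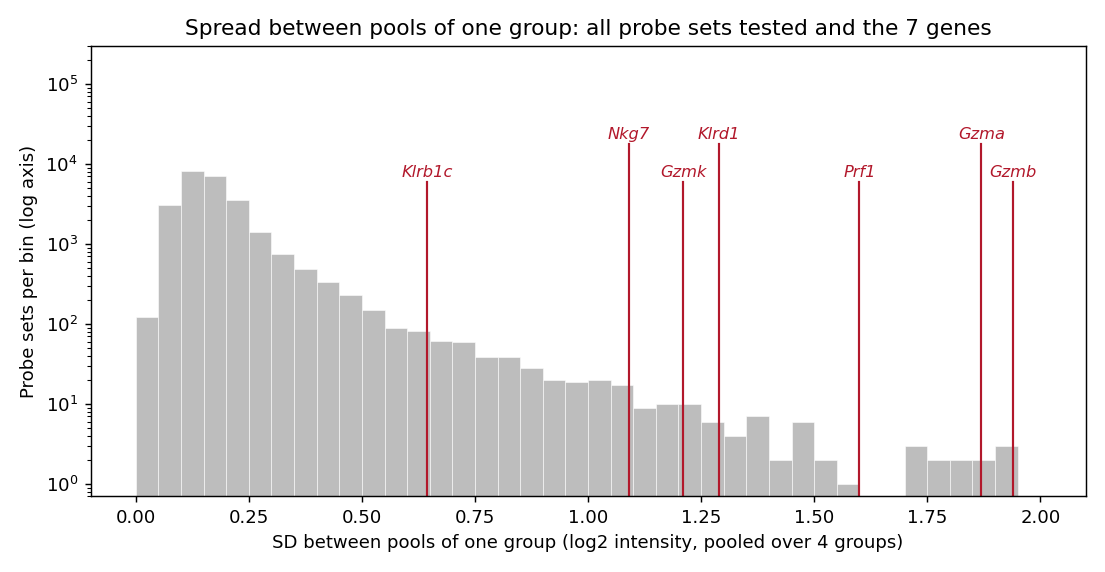
Number of probe sets (log axis) by their SD between pools of one group, in log2 intensity, pooled over the 4 groups, for the 25692 probe sets tested, with the 7 genes as red lines. Gzmb, Gzma and Prf1 lie at 1.94, 1.87 and 1.6, in the far right tail, and Klrb1c lies at 0.644.

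COMB against LPS gives the difference between LPS with and without hypoxia. Whether it differed from that of hypoxia without LPS is the interaction, given below. For COMB against LPS, the limma model over all 12 arrays called 1 of the 7 genes, where it called 11.9% of all probe sets tested. Nkg7 was higher in COMB by 2.77 on the log2 scale (SE 0.732, 95% interval 1.17 to 4.36, adjusted p = 0.0308), that is 6.81-fold. The estimates of the other 6 did not pass the threshold, with 3.59 for Gzmb (SE 1.3, adjusted p = 0.0964), 3.43 for Gzma (SE 1.25, adjusted p = 0.0986), 2.86 for Prf1 (SE 1.07, adjusted p = 0.106), 2.22 for Klrd1 (adjusted p = 0.117), 2.13 for Gzmk (adjusted p = 0.111) and 1.42 for Klrb1c (adjusted p = 0.0547). All 7 had an unadjusted p below the threshold, against 28% of all probe sets, the lowest 0.00263 and the highest 0.0242. The methods' t-test, run unpaired since no label pairs the pools, called 1 unadjusted and 0 after adjustment. Over all 25692 probe sets it called 5843 and 14. The median of the 7 was 2.77, against -0.0291 over all probe sets tested. For 5 genes each COMB pool was above each LPS pool, which held for 15.4% of all probe sets, and Gzmk and Klrd1 were the exceptions, as was Gzmb on its second probe set. Without any single LPS pool, or without the COMB 10/11 pool or the COMB 12/13/14 pool, none of the 7 was called. Over all 25692 probe sets, 1526 to 2607 were called then. Without the COMB 2/3 pool all 7 were called, against 3321 of all probe sets. Without CTL 5/6/7 and without CTL 1/3/4, which enter only the shared spread, 4 and 2 were called, against 2892 and 2731 of all probe sets. A trended robust fit left Nkg7 at an adjusted p of 0.0774.

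COMB against CTL called 0 of the 7, where 19.1% of all probe sets were called, with estimates of 0.937 to 2.57 on the log2 scale (median 1.67, against -0.0424 over all). The limma adjusted p were 0.152 to 0.315, and 1 of the 7, Nkg7, had an unadjusted p below the threshold (0.0484), against 32.1% of all probe sets. The methods' t-test, unadjusted, called 0, against 6692 of the 25692 probe sets. The 95% intervals were wide, with -0.265 to 5.41 for Gzmb, -0.404 to 4.26 for Prf1 and 0.0131 to 3.2 for Nkg7, so those of Gzmb and Prf1 included 0 as well as large differences. The count depended on single pools. Without the COMB 2/3 pool, 6 of the 7 were called, with Prf1 as the exception (adjusted p = 0.0595), and without the CTL 5/6/7 pool, 5 were called, with Gzmk (adjusted p = 0.0725) and Klrd1 (adjusted p = 0.163) as the exceptions. In these fits Gzmb was at 3.92 and at 4.07, and 4946 and 4316 of the 25692 probe sets were called.

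COMB against HPO asks about the addition of LPS to hypoxia. It called 0 of the 7 (limma), against 15.6% of all probe sets, with 6 at an unadjusted p below the threshold (28.7% of all probe sets). The methods' t-test, unadjusted, called 0 of the 7, against 4793 of the 25692 probe sets. Estimates were 0.998 to 3.92 with a median of 2.23 (-0.0373 over all), and Gzma, at 3.92 (SE 1.25, adjusted p = 0.0539), was the only gene of which each COMB pool exceeded each HPO pool, which held for 11% of all probe sets. Without the COMB 2/3 pool all 7 were called, and without the CTL 5/6/7 pool, which enters only the shared spread, 3 were, and 1 without CTL 1/3/4. Over all 25692 probe sets, 4289, 3821 and 3739 were called in these fits.

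The single exposures called none of the 7. LPS against CTL gave -1.16 to -0.462 (median -0.929, against -0.0045 over all), and limma called 0 of the 7 (adjusted p 0.533 to 0.867), where 2.04% of all probe sets were called, and 0 had an unadjusted p below the threshold (14.8% of all). HPO against CTL gave -1.47 to -0.0613 (median -0.539, against -0.00211 over all), with 0 called by limma, 0 below the threshold unadjusted (9.71% of all), and 0.035% of all probe sets called. Without the CTL 5/6/7 pool the sign turned for 10 of these differences, with LPS against CTL at 0.485 for Gzmb and 0.346 for Gzma, and HPO against CTL at 0.808 for Prf1. LPS against HPO called 0 of the 7 (limma, 0 unadjusted) and 7.19% of all probe sets (20.7% unadjusted), with 2 estimates above 0 and a median of -0.39 (-0.00534 over all). That test uses the spread over 4 groups, 1.09 for Nkg7, whose SD was 0.315 in LPS and 0.231 in HPO. A limma fit of these 2 groups alone had 2 of the 7 below the threshold unadjusted, and its unadjusted share over all probe sets was not counted. Nkg7 was the gene of which each LPS pool was below each HPO pool, which held for 17.3% of all probe sets. The methods' t-test, unadjusted, called 0 in these 3 comparisons, against 4425, 2225 and 4481 of the 25692 probe sets.

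Whether the difference between COMB and LPS was greater than that between HPO and CTL was tested as the interaction, on the log2 scale. Of the 7 genes, limma called 0, against 0.136% of all probe sets, although all 7 estimates were above 0 (1.48 to 4.91, median 3.39, against -0.0238 over all) and 5 had an unadjusted p below the threshold, against 12.3% of all probe sets. For 5 of the 7 genes every COMB pool was above the HPO mean and every LPS pool below the CTL mean, which held for 3.37% of all probe sets, and for 2 genes every COMB pool was above the LPS mean and every HPO pool below the CTL mean, which held for 2.47%. The adjusted p were 0.201 for Nkg7 to 0.427 for Klrd1. Without the COMB 2/3 pool, 3 were called, against 643 of the 25692 probe sets. These comparisons share arrays and are not independent of each other.

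**Figure D3:**
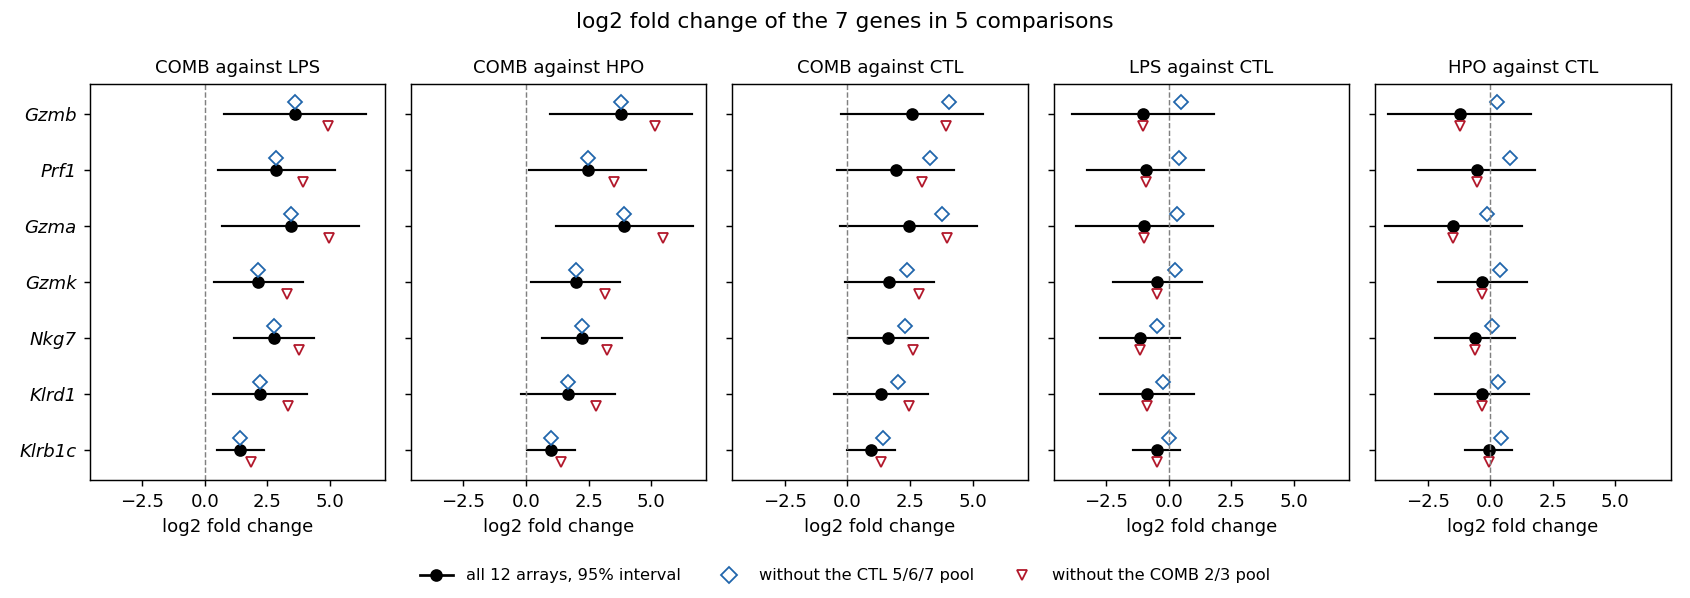
Difference of the 7 genes on the log2 scale in 5 comparisons, with 95% intervals from the limma fit (black), and the same value without the CTL 5/6/7 pool (blue) or without the COMB 2/3 pool (red). All estimates for COMB against LPS lie above 0 (1.42 to 3.59), and 10 of the 14 estimates for LPS and HPO against CTL lie above 0 without the CTL 5/6/7 pool.

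The 7 genes moved together over the pools. Over the 12 arrays Pearson's r between 2 of them was 0.869 to 0.982 (21 pairs, median 0.942) and Spearman's rho 0.643 to 0.951. Without the COMB 10/11 and COMB 12/13/14 pools, which stood farthest from the median, r was 0.675 to 0.96, and over deviations from the group means 0.807 to 0.983. The 12 arrays share the group differences and the high pools, so these are descriptions.

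Of 12846 other genes, those most like the mean of the standardized 7 were Xcl1 (r = 0.98), which encodes the chemokine lymphotactin, Il2rb (0.979), the beta chain of the IL-2 and IL-15 receptors, Sh2d1a (0.977), the adaptor SAP, which passed the filter on low intensities on 3 arrays only, those of the 3 high pools, Gzmm (0.977), granzyme M, and Runx3 (0.975), a transcription factor of cytotoxic lymphocytes. Apol3l1, Ppp1r16b, Ptpn22, Gimap7 and Ctsw followed, with r of 0.952 to 0.966. Without the same 2 pools r was between 0.852 (Gimap7) and 0.954 (Runx3). Gzmm had 78.9, 325 and 350.2 in COMB, 61.2, 76.6 and 67.8 in LPS, 104, 78.2 and 58.0 in HPO, and 62.8, 319 and 67.8 in CTL. Its high pools were those of the 7 genes.

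**Figure D4:**
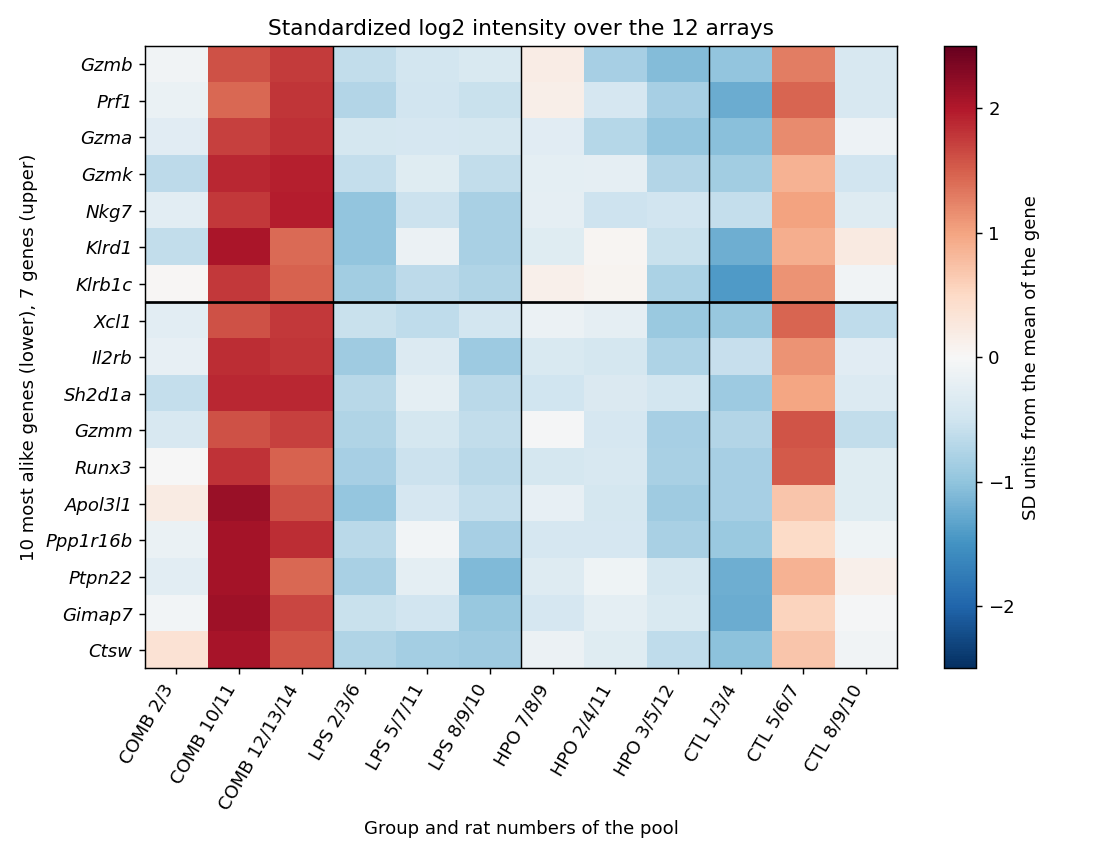
Standardized log2 intensity (SD units, color) of the 7 genes (above the line) and the 10 most alike genes (below it) in the pools of COMB, LPS, HPO and CTL. The COMB 10/11 and COMB 12/13/14 pools and the CTL 5/6/7 pool are red in all rows, and the COMB 2/3 pool is near or below the mean of each gene in most.

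Lists of the same pathway, set with earlier results known, were counted in COMB against CTL, where 8.84% of all probe sets were called higher and 10.2% lower. The list named granule proteins here leaves out the 7 genes and also holds the ligand Tnfsf10 and the inhibitor Serpinb9. Of its 11 tested genes, 4 were higher in COMB and 3 lower. Gzmm, its only tested granzyme, was not called (0.9, adjusted p = 0.353, limma). Tnfsf10, the death ligand TRAIL, was at least 3.24-fold higher (adjusted p = 0.000188, limma as in the following), a bound against the 20th percentile of each CTL array, since all 3 CTL values lay below it. Serpinb9, an inhibitor of granzyme B, was higher by 1.74 (adjusted p = 0.0185), and Ctsw, cathepsin W, by 1.09 (adjusted p = 0.0324), and Ctsh, which can activate granzyme precursors, fell by 0.681 (adjusted p = 0.00165). Tnfsf10 was at 35.0, 27.2 and 54.0 in COMB, against 5.59, 8.43 and 9.28 in CTL, and was high in the COMB 2/3 pool too. Of 11 genes of granule release, Sytl2, a Rab27 effector, was higher by 1.96 (adjusted p = 0.00224), and Vamp7 and Ap3b1, which act in vesicle fusion and sorting, were lower by small amounts (-0.501 and -0.369). The list medians were 0.274 and -0.158.

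Of 10 receptors and co-receptors, Cd96 was higher by 1.32 (adjusted p = 0.0337) and the inhibitory lectin-like receptor Klrb1b fell by 0.906 (adjusted p = 0.00388). Of 16 adaptors and transcription factors, Zap70, the kinase of the T cell receptor and of NK receptors, was higher by 1.72 (adjusted p = 0.0421) and Gata3 by 1.6 (adjusted p = 0.0219), and Zeb2 fell by 1.08 (adjusted p = 0.00469). Of 11 cytokines and receptors, the chemokine Ccl5 was higher by 2.69 (adjusted p = 0.0109) and the chemokine receptor Cxcr3 by 2.08 (adjusted p = 0.0257). Ccl5 had 948, 5044 and 3237 in COMB and 136, 692 and 608 in CTL. Against LPS, where 6.64% of all probe sets were called higher and 5.27% lower, COMB had 2 higher of 11 granule proteins (1 lower), 4 of 11 genes of release, 1 of 10 receptors, 4 of 16 adaptors (1 lower) and 4 of 11 cytokines. The counts of calls in COMB against CTL depended on single arrays. Without the COMB 2/3 pool they were 6 receptors, 8 adaptors and transcription factors and 6 cytokines and receptors, without CTL 5/6/7 they were 3, 5 and 4, and without the COMB 10/11 pool, the COMB 12/13/14 pool, the CTL 1/3/4 pool or the CTL 8/9/10 pool each of these 3 lists had 1. The 7 calls among granule proteins were 2 without the COMB 10/11 pool, the COMB 12/13/14 pool or the CTL 1/3/4 pool and 4 without the CTL 8/9/10 pool. The counts against LPS depended on single arrays too. Without the COMB 2/3 pool they were 5 granule proteins, 4 receptors and 10 adaptors. Calls among genes of release were 1 without LPS 2/3/6 or LPS 8/9/10 and 2 without LPS 5/7/11 or COMB 10/11. The 5 calls among adaptors were 1 without COMB 10/11, LPS 2/3/6 or LPS 8/9/10, 2 without COMB 12/13/14 or CTL 8/9/10, and 3 without LPS 5/7/11 or HPO 2/4/11. The cytokines had 1 without any single LPS pool, COMB 10/11 or COMB 12/13/14, and 2 without HPO 2/4/11 or HPO 7/8/9. The receptors had 0 without LPS 8/9/10 and 2 without HPO 3/5/12. Of the further NK markers listed, Ncr1, Cd244 and Tbx21 were not tested here, and none of the others was called in COMB against CTL. Klrc1 differed by 0.025 (adjusted p = 0.954), Ncr3 by -0.0114 (0.959), Eomes by 0.356 (0.223) and Klrk1 by 0.995 (0.0634). Il2rb differed by 1.21 (0.186), Xcl1 by 1.37 (0.245) and Ifng by 1.87 (0.064), and Ifng passed the filter on 3 arrays only. Against LPS, Il2rb (2.14, limma adjusted p = 0.0373) and Ifng (2.19, adjusted p = 0.0479) were called higher in COMB. The others of these markers were not called there. The median over the receptor list was 0.343 in COMB against CTL.

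Part of the T cell genes were high in the same pools. Of 15 tested, 9 had the COMB 10/11, COMB 12/13/14 and CTL 5/6/7 pools above all others, as all 7 genes had. The same held for 2 of 8 neutrophil, 1 of 10 alveolar macrophage and 0 of 13 airway epithelium genes. The share over all probe sets was not counted. Limma called 4 of the 15 higher in COMB than in CTL (8.84% of all probe sets) and 8 higher than in LPS (6.64%), and none lower. These counts were 0 to 10 and 3 to 11 when single arrays were left out, with 0 calls against CTL without the COMB 10/11 pool or the CTL 1/3/4 pool, 1 without COMB 12/13/14 or CTL 8/9/10, 7 without CTL 5/6/7 and 10 without COMB 2/3. Calls against LPS were 3 without COMB 10/11 or LPS 8/9/10, 4 without LPS 2/3/6 and 5 without COMB 12/13/14. Cd3e had 213, 1319 and 762 in COMB and 67.1, 233 and 188 in CTL (2.06, adjusted p = 0.0305), Cd8b had 22.1, 99.05 and 86.85 in COMB and 13.9, 27.6 and 21.3 in CTL (1.47, adjusted p = 0.0345), and Cd4 differed by -0.143 (adjusted p = 0.543), Cd28 by -0.0737 (adjusted p = 0.74) and Cd40lg by 0.0332 (adjusted p = 0.884). The mean log2 intensity of the T cell genes was 6.02 to 7.8 in COMB, 5.1 to 5.87 in LPS, 5.7 to 5.85 in HPO and 5.11 to 6.38 in CTL, and that of the 7 genes was 5.57 to 8.86 in COMB, 4.89 to 5.35 in LPS, 4.71 to 5.9 in HPO and 4.36 to 7.87 in CTL. From COMB 10/11 the COMB 12/13/14 pool differed by a median of 0.264 (log2) over the 7 genes and of -0.718 over the T cell genes. The CTL 5/6/7 pool was above the CTL 8/9/10 pool by a median of 1.9 for the 7 genes and 0.36 for the T cell genes. The part of T cells in these results was not tested.

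**Figure D5:**
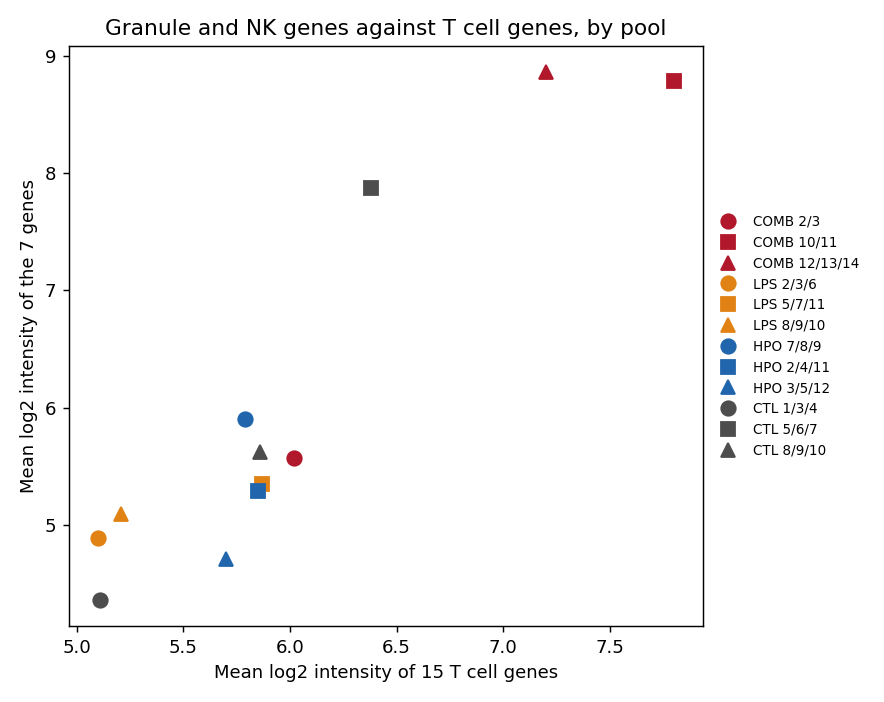
Mean log2 intensity of the 7 genes against that of 15 T cell genes, 1 marker per pool of COMB, LPS, HPO and CTL. The CTL 5/6/7 pool (7.87) lies well above the other pools with a like T cell level, and the highest COMB pools lie at 8.79 and 8.86.

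Other cell markers also differed between pools and groups. The mean log2 intensity of 8 neutrophil genes was 7.77 to 8.64 in COMB, 6.84 to 6.92 in LPS, 5 to 5.42 in HPO and 5.16 to 6.84 in CTL, and that of 13 airway epithelium genes 9.33 to 10.1 in COMB, 7.78 to 8.28 in LPS, 8.26 to 8.73 in HPO and 7.27 to 7.68 in CTL. The neutrophil genes went both ways. In COMB against CTL limma called 4 higher, Lcn2 most (7.46), and Camp lower (-0.925), against 8.84% and 10.2% of all probe sets. In LPS against CTL it called Lcn2 higher (5.29) and Camp lower (-0.822), against 2.04% in either direction. The neutrophil gene S100a9 was at 2011 in the CTL 5/6/7 pool, at 20.6 and 60.2 in the other CTL pools and at 513 to 1099 in LPS. Lcn2 was at 31.9 in CTL 5/6/7, at 18.5 and 23.0 in the other CTL pools and at 888 to 1091 in LPS. Of the genes of other lists, Irf7 was at 1251 in CTL 5/6/7, at 142 and 166 in the other CTL pools and at 1089 to 1395 in LPS. Chi3l1 was at 253 in CTL 5/6/7, at 42.6 and 38.2 in the other CTL pools and at 242 to 348 in LPS. Of the 8 neutrophil genes, 7 were highest in CTL 5/6/7 among the CTL pools. The COMB 2/3 pool, the lowest COMB pool for the 7 genes, had the highest Lcn2 of all arrays (4960), while the other 7 neutrophil genes were lower there than in COMB 10/11. All 13 airway epithelium genes were highest of all arrays in the COMB 2/3 pool, with Epcam at 845. The mean of 6 erythrocyte and platelet genes was 7 to 7.45 in COMB. In CTL it was 7.11 in the 5/6/7 pool, 5.79 in the 1/3/4 pool and 6.44 in the 8/9/10 pool. That of 7 B cell genes was 5.3, 6.55 and 6.46 in COMB. In CTL it was 5.41, 5.53 and 6.16, so that CTL 5/6/7 was not the highest CTL pool. The part of these cells in the results was not tested.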

How the data were processed

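Pooled RNA of BALF cells had been hybridized to 12 arrays of the type Affymetrix Rat Genome 230 2.0, of which COMB, LPS, HPO and CTL had 3 each. The deposited unit is intensity, linear and already summarised by the authors, and their normalization method is not given in the sources used here. The filter at the 20th percentile that their methods name is not applied in the deposited values. Here log2(intensity + 1) was used with no further scaling. Probe sets past the 20th percentile of the array on 3 or more arrays entered the fit (25692, without 57 controls). Every column was assigned to a group from the source names in the labels.

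limma 3.58.1 (R 4.3.3, statmod 1.5.0 and the data.table package, version 1.17.8) was fitted to the means of the 4 groups, with 8 residual and 3.94 prior degrees of freedom, for 7 contrasts. P values were adjusted after Benjamini-Hochberg over all probe sets of the fit, separately for each contrast, and 0.05 was the threshold. No label says whether pools come from separate experiments, so p values measure only the spread between these pools. The platform annotation gave 20832 probe sets 1 gene, 436 several and 9831 none, and the probe set that names Gzmb with another gene was not used. The members and lists were chosen with earlier results of these data known. Named genes were the 7 members, up to 4 called genes of each pathway list with the largest change in COMB against CTL, the 10 most alike genes and the further NK markers listed. Marker genes of other cell types that are named were chosen after their values were seen. The fit was tested on simulated data. Alternatives were other scalings, pseudocounts, filters, weights and fits, the methods' t-test and fold criterion, a replicate block and the omission of each array. The methods name the t-test as paired, but no label pairs the pools, so it was run unpaired. Shares over all probe sets for further ways of counting, list counts under other settings and the ranks of spread were added after seeing the data. Scanned arrays and the other experiments of the study were not analysed here.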

Additional observations from a re-analysis of the deposited data

Results flagged for a closer look

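For 5 of the 7 genes, the COMB pools moved away from the HPO mean in one direction and the LPS pools moved away from the CTL mean in the other, in every pool, which held in these directions for 3.37% of all probe sets. The second probe set of Gzmb did not show it. For Gzmb the COMB pools were 1.1 to 5.32 above the HPO mean (log2) and the LPS pools differed from the CTL mean by -1.31 to -0.792, with an interaction of 4.81 (adjusted p = 0.315 by limma, as in the following). For Prf1 the values were 0.368 to 3.83 in COMB and -1.19 to -0.728 in LPS, with an interaction of 3.4 (adjusted p = 0.391). For Gzma they were 0.858 to 5.59 in COMB and -0.997 to -0.962 in LPS, with an interaction of 4.91 (adjusted p = 0.285). For Nkg7 they were 0.206 to 3.37 in COMB and -1.45 to -0.822 in LPS, with an interaction of 3.39 (adjusted p = 0.201). For Klrb1c they were 0.175 to 1.53 in COMB and -0.571 to -0.412 in LPS, with an interaction of 1.48 (adjusted p = 0.354).

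For 2 genes the same held with hypoxia as the contrast, as it did for 2.47% of all probe sets. The COMB pools were 0.367 to 5.1 above the LPS mean for Gzma, where the HPO pools differed from the CTL mean by -2.18 to -0.639, and 0.748 to 3.91 above it for Nkg7, where they differed by -0.77 to -0.352. The interaction is the same value in both views, and it passed the threshold for none of the 7 genes. The CTL mean that the LPS and HPO pools were set against contains the high CTL 5/6/7 pool, and its part in these signs can be read from the values without it given for the single exposures.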

How the results depend on the processing

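The number of the 7 genes called depended on single arrays. In COMB against CTL (0 called) leaving out 1 array gave 0 to 6, in COMB against HPO (0) 0 to 7, in COMB against LPS (1) 0 to 7 and in the interaction (0) 0 to 3, each highest without the COMB 2/3 pool. Without that pool, 4946, 4289, 3321 and 643 of the 25692 probe sets were called. Array weights, which gave that pool 0.348 and the HPO 7/8/9 pool 6.38, called 6, 5, 7 and 3 in the same comparisons. Over all probe sets these weights called 7300, 6774, 4635 and 2116. The methods' fold criterion of 2, with no test, gave 6, 6, 7 and 7, against 1387, 1116, 970 and 696 of all probe sets. By this criterion each single exposure had 2 lower genes against CTL, where 245 (LPS) and 172 (HPO) of all probe sets passed in either direction. The filter at the array median and quantile normalization gave 2 in COMB against LPS, and the trended robust fit and the methods' t-test after adjustment gave 0 there. Over all probe sets the filter gave 2848 of 16451, and the other 3 settings gave 4047, 3129 and 14 of 25692. The filter at the array median gave 1 in COMB against HPO, and weights by the number of rats gave 2, against 3886 of 16451 and 3939 of 25692 probe sets. A fit of the compared groups alone called Klrb1c (adjusted p = 0.047) in COMB against LPS and lost Nkg7 (adjusted p = 0.0759). LPS against HPO called 0 in all settings.

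Directions turned only in LPS or HPO against CTL and in LPS against HPO. With array weights HPO against CTL became 0.7 for Gzmb, 0.14 for Gzmk, 0.144 for Klrb1c and 0.582 for Prf1, and LPS against HPO -1.3 for Gzmb and -0.203 for Gzma. The second probe set gave -0.236 for Gzmb in LPS against HPO. Leaving out 1 array gave, in LPS against CTL, -2.16 to 0.346 for Gzma, -2.1 to 0.485 for Gzmb, -0.946 to 0.241 for Gzmk and -1.97 to 0.418 for Prf1. In HPO against CTL it gave -2.3 to 0.281 for Gzmb, -0.8 to 0.387 for Gzmk, -0.562 to 0.423 for Klrb1c, -1.17 to 0.319 for Klrd1, -1.07 to 0.0836 for Nkg7 and -1.58 to 0.808 for Prf1, and in LPS against HPO -0.378 to 1.08 for Gzmb and -0.804 to 0.0648 for Prf1. Of 1176 values of single genes under other settings, 1087 kept direction and side of the threshold, 61 came past it, 7 fell short of it and 21 turned. The cause was not tested.

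CTL and LPS pools share the first rat numbers 5 and 8, and their deviations from the group means did not correlate (-0.00764 and -0.00159). Such values cannot decide whether these pools shared a day, a batch or handling, which no label gives. Pools of LPS, HPO and COMB share the first rat number 2, and their deviations were not compared. A replicate block on the first rat number (consensus correlation -0.107) left 1 call in COMB against LPS and changed no count of the 7 genes called after adjustment. The number with an unadjusted p below the threshold went from 1 to 0 in COMB against CTL and from 5 to 6 in the interaction. Over all probe sets, calls in HPO against CTL were 9 and ranged over 1 to 3576 under the other limma settings, the omission of single arrays aside, and those in LPS against CTL 525 (420 to 3702), in the interaction 35 (25 to 2116), in LPS against HPO 1848 (1184 to 5764), in COMB against HPO 4004 (1933 to 6774), in COMB against LPS 3060 (1734 to 4635) and in COMB against CTL 4895 (3003 to 7300). Leaving out 1 array gave 0 to 120, 64 to 783, 2 to 643, 608 to 2274, 2880 to 4289, 1526 to 3868 and 3106 to 5677 in the same order. The methods' t-test after adjustment called 544 in COMB against CTL, 14 against LPS and 17 against HPO, 1 in LPS against CTL and 0 in the other pairs, and its unadjusted counts were 2225 to 6692. The fold criterion gave 1387, 970 and 1116 for COMB against CTL, LPS and HPO, 245 for LPS and 172 for HPO against CTL, 345 for LPS against HPO and 696 for the interaction. With 3 pools a group, the number of arrays limits the precision.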
